A study of Mus musculus with 12 samples.

Results

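The genes described here encode the proteins of the cytoplasmic ribosome. They were chosen by name: gene rows with an Ensembl identifier and a symbol that begins with Rpl or Rps and a digit, together with Rplp0, Rplp1, Rplp2 and Rpsa, while symbols with "-ps" (pseudogenes), the Rps6k kinases and Rps19bp1 were left out. The rule found 85 of the 31208 gene rows. Of these, 46 are the standard proteins of the large subunit, 31 are those of the small subunit and 8 are paralogs or retained copies (Rpl10l, Rpl3l, Rpl39l, Rpl22l1, Rpl36al, Rpl7l1, Rps27l and Rps27rt). The rule itself uses no measured value.

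The study compared brain tissue of male C57BL/6 mice aged 8 weeks in 3 groups of 4 mice each. Sham mice had sham surgery, whose steps are not given in the sources used here. In the other groups the left middle cerebral artery was blocked with a filament for 6 h, after vehicle (ischemia 6 h + vehicle) or lactate (ischemia 6 h + lactate) had been injected into the cerebral ventricles 24 h before surgery. Both ischemic groups thus share the injection surgery, and whether sham mice were injected is not given in the sources used here. The labels say lactate and the methods of the study say sodium D-lactate, which differs from the L form that most tissue makes. The 12 mice are named sham, vehicle and lactate 1 to 4. Total RNA was turned into full-length cDNA, amplified by PCR and read on a nanopore sequencer, so that a read stands for a cDNA molecule and not for a piece of it.

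A ribosome translates mRNA with a small subunit, which holds the mRNA and reads its codons, and a large subunit, which joins the amino acids. Most of these proteins are needed in equal amounts, and cells assemble them with ribosomal RNA in the nucleolus. The mRNAs of these proteins begin with a stretch of C and T bases, the 5' terminal oligopyrimidine tract (TOP). When the kinase mTOR is less active, as in a shortage of energy or oxygen, Larp1 and the 4E-BP proteins hold such mRNAs back from translation, a step that a count of mRNA does not measure. In brain, ribosomal protein mRNAs are among the most abundant mRNAs of neurons and glia, and several of them serve as reference genes for quantitative PCR.

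The 5' ends show this design in part of the genes. RefSeq promoter windows of 300 bases (250 before and 50 after the annotated start, build GRCm38.p6) were found for 65 of the 85 members, 77 windows in all. The annotated start lies in a run of at least 5 C and T bases in 27.3% of the member windows and in 10.1% of all 32851 windows. The windows of the 3 members with the longest runs are shown first (60 bases before to 30 after the start), followed by Rplp0 and Rpl10, which met the test described below, by Rplp2 and Rpl13, which had an unadjusted p under 0.05 there, and by the paralogs Rpl3l and Rpl10l, which were hardly counted in this tissue. Capitals mark the annotated first base with any unbroken run of C and T that holds it.
Rpl7a (chr2:26910747-26910836, + strand): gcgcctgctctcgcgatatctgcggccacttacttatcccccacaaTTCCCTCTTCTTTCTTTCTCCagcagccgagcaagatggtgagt
Rpl27a (chr7:109519135-109519224, + strand): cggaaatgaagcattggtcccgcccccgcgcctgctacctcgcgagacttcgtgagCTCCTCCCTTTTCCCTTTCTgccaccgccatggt
Rpl34 (chr3:130730308-130730397, - strand): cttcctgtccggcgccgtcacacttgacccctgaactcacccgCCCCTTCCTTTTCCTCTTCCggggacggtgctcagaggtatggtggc
Rplp0 (chr5:115559407-115559496, + strand): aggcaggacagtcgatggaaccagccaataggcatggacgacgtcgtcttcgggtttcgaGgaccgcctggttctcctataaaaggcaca
Rpl10 (chrX:74270756-74270845, + strand): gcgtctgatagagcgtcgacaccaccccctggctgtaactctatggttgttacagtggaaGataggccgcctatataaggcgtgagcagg
Rplp2 (chr7:141447591-141447680, + strand): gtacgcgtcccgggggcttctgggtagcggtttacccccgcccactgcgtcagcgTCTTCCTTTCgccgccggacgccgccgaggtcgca
Rpl13 (chr8:123102290-123102379, + strand): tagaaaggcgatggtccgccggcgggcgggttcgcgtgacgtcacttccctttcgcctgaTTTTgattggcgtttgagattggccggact
Rpl3l (chr17:24727766-24727855, + strand): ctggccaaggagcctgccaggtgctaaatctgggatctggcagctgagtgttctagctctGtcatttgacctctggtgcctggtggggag
Rpl10l (chr12:66284372-66284461, - strand): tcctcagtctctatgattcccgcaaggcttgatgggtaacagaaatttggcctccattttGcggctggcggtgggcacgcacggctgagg

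The run at the start was 21 bases long in Rpl7a, 20 in Rpl27a and in Rpl34, 10 in Rplp2 and 4 in Rpl13. In Rplp0 and Rpl10, and in Rpl3l and Rpl10l, the annotated start is not C or T, so the windows give no run there. CTTTCC or CTTTTC, pieces of the start element of ribosomal protein promoters, were present on either strand in 66.2% of the member windows and in 42.2% of all windows, and began within 10 bases of the start on the strand of the transcript in 19.5% and 1.94%. The 2 pieces can overlap each other. CCGGAAG, the core bound by ETS factors such as GABP, was present in 35.1% of the member windows and in 8.86% of all windows. AAGATGGC, a motif of the factor YY1, was present in 10.4% and 2.75%, again on either strand. These matches describe the letters of the windows, and no window was compared with a measured start in these libraries.

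Ribosomal protein genes took a large and similar share of all counted reads in each group. The share was 8.27%, 9.13%, 7.76% and 8.47% in sham mice 1 to 4, 7.51%, 8.38%, 8.76% and 8.77% in vehicle mice, and 8.46%, 8.33%, 9.02% and 8.73% in lactate mice. The lowest value was that of vehicle mouse 1 and the highest that of sham mouse 2, and the ranges of the 3 groups overlapped. The group means were 8.41% ± 0.565 (SD, n = 4), 8.35% ± 0.591 (SD, n = 4) and 8.64% ± 0.306 (SD, n = 4), respectively. The large subunit held between 4.35% and 5.29% of the reads and the small subunit between 2.94% and 3.52% or, in lactate mouse 3, 3.53%. The ratio of large to small subunit reads lay between 1.42 and 1.505 in the 12 mice. Since every value is relative to the other RNA of the same library, fewer cells of a type and less RNA per cell cannot be told apart here, and the amount of ribosomes was not measured.

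**Figure D1:**
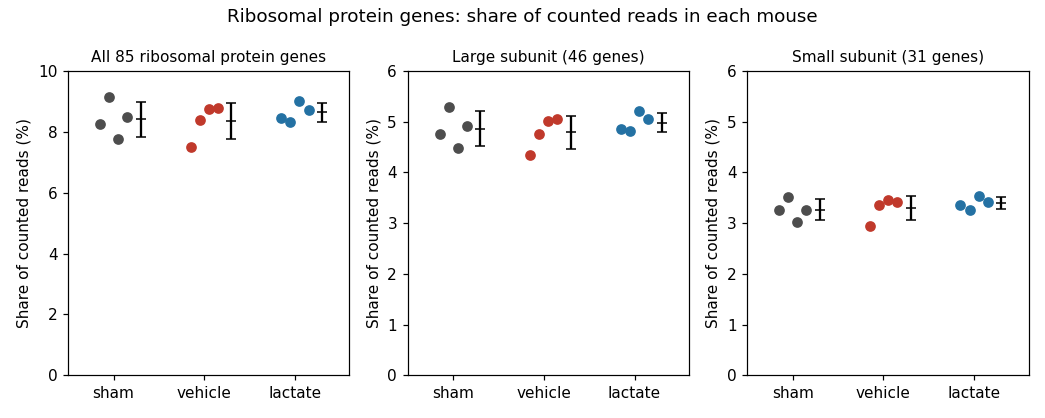
Share of counted reads (%) on ribosomal protein genes in each mouse, for all 85 members and for the standard proteins of the large and of the small subunit. Points are mice and bars are the mean and SD of 4 mice; vehicle mouse 1, at 7.51%, is the lowest and the ranges of the groups overlap.

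The libraries held between 6815920 and 10677224 counted reads, and the largest was that of vehicle mouse 1. At this depth 3 counts correspond to 0.281 to 0.440 CPM (counts scaled to the same total in each library), and each standard ribosomal protein had at least 1197 counts in each mouse, so counting error is small for most members, though close to the spread between mice for the least variable ones, such as Rps2 in lactate mice. Neuron markers summed to between 3290.1 and 5151 CPM in the 12 libraries, and 0 of these 8 markers was called in any comparison, so the neurons that the label brain implies were present in each library. Libraries also differed in other cell types: Ttr, a transport protein of the choroid plexus, was at 1817 CPM in vehicle mouse 2 and at most 16.2 CPM in the other mice, and it was called higher in lactate over sham. Microglia markers summed to 265 to 305 CPM in sham, 220 to 286 CPM in vehicle and 353 to 391 CPM in lactate mice, and their calls went in both directions: C1qb higher and Cx3cr1 and P2ry12 lower in vehicle over sham, and C1qa and C1qb higher and P2ry12 lower in lactate over sham. Hemoglobin and other red blood cell markers summed to 560 to 633 CPM in sham mice, to 333 to 500.4 CPM in vehicle and 375 to 499 CPM in lactate mice, and 4 of 5 were called lower in lactate over sham. Astrocyte markers summed to 6039 to 9980 CPM, 9557 to 11389 CPM and 9575 to 11355 CPM in sham, vehicle and lactate mice, and Gfap, the filament of reactive astrocytes, was called higher in both comparisons with sham. Oligodendrocyte markers summed to 7070.2 to 11305 CPM, 5579 to 10466 CPM and 8867 to 9914 CPM, and Cnp and Mog were called lower in lactate over sham. Endothelial markers summed to 152 to 158 CPM, 136 to 185 CPM and 174 to 219 CPM, with Ly6c1 called higher and Slco1a4 lower in lactate over sham. Neutrophil markers summed to 3.23 to 7.12 CPM, 11.3 to 70.5 CPM and 19.5 to 40.2 CPM, with S100a8 and S100a9 called higher in both comparisons with sham, while Elane was at 0 and Ly6g had at most 3 counts in a mouse. The part of these differences in the results below was not tested. Counts were compared per gene between groups, and a gene was called when its p-value, adjusted over all genes tested, was under 0.05. Of the 85 members, 82 were tested in each comparison, and Rpl10l, Rpl3l and Rpl39l were too low. Where nothing says otherwise, fold changes are log2 values and levels are CPM.

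By subunit, the median fold changes were 0.03, 0.04 and -0.00 in the 46 large subunit genes and 0.05, 0.11 and -0.01 in the 31 small subunit genes, for vehicle over sham, lactate over sham and lactate over vehicle. Called genes were found in the large subunit and in lactate over sham, as described below.

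The first comparison, ischemia with vehicle against sham, sets 6 h of arterial occlusion after a vehicle injection against sham surgery. No member was called, either higher or lower, where 1.29% of the 17019 genes tested were called higher and 0.182% lower. With an unadjusted p under 0.05, 2 members were higher, Rpl13 and Rps14, and 0 were lower, against 8.58% and 5.21% of all genes. DESeq2 and voom with quality weights also called 0 members at the adjusted threshold. Adding a fold of at least 1.5, a limit that the study's methods also set, to the unadjusted p left 0 members, against 9.52% of all genes. The median fold change of the 82 members was 0.03, and that of all genes 0.00. The median size of the change, without its sign, was 0.075 in the members, 0.22 in all genes and 0.12 in the 1802 genes with a mean of at least 100 CPM. For 81 of the 82 members, the 95% interval of the fold change lay within 1.5-fold in either direction, as it did for 27.1% of all genes and 78.0% of the genes of at least 100 CPM. The exception was Rps2.

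The second comparison, ischemia with lactate against sham, adds lactate to the same injury. Here 2 members were called higher, Rplp0 and Rpl10, and 0 lower, where 8.76% of the 17262 genes tested were called higher and 3.54% lower. The share of members called, 2.44%, was thus below that of all genes. With an unadjusted p under 0.05, 5 members were higher, as Rpl13, Rplp2 and Rps28 joined, and 0 were lower, against 15.6% and 11.4% of all genes. With a fold of at least 1.5 no member remained, against 17.5%. The median fold change of the members was 0.07, and 61 of 82 were above 0, while the median was -0.03 in all genes, of which 46.9% were above 0, and -0.002 in the genes of at least 100 CPM. The median of the members rested in part on sham mouse 3: without it the value was 0.02, and without sham mouse 2 it was 0.11. It was also 0.02 with no filter on low counts, and it stayed above 0 in each alternative run. In vehicle over sham, the median moved to -0.004 without sham mouse 3, 0.08 without sham mouse 2 and 0.09 without vehicle mouse 1. For 80 of 82 members the 95% interval lay within 1.5-fold, against 32.1% of all genes and 81.1% of the genes of at least 100 CPM. The exceptions were Rps28 and Rps2.

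The third comparison, lactate against vehicle within ischemic brain, asks how the injected agent changed the ischemic tissue. No member was called in either direction, and among all 17419 genes tested 0% were called higher and 0.00574% lower. With an unadjusted p under 0.05 there were again 0 members higher and 0 lower, against 4.91% and 3.93%, and with the 1.5-fold limit 0, against 6.23%. DESeq2 and voom also called 0. The median fold change was -0.001, with 41 members above 0 and 41 below, and that of all genes was -0.03. Its sign depended on the setting, from -0.03 without vehicle mouse 1 to 0.04 with only Ensembl rows. The 95% interval lay within 1.5-fold for 80 of 82 members, against 26.7% of all genes and 78.5% of the genes of at least 100 CPM, and the exceptions were Rps29 and Rpl7l1. The difference between lactate and vehicle was thus bounded by its 95% interval to less than 1.5-fold for all members but these.

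**Figure D2:**
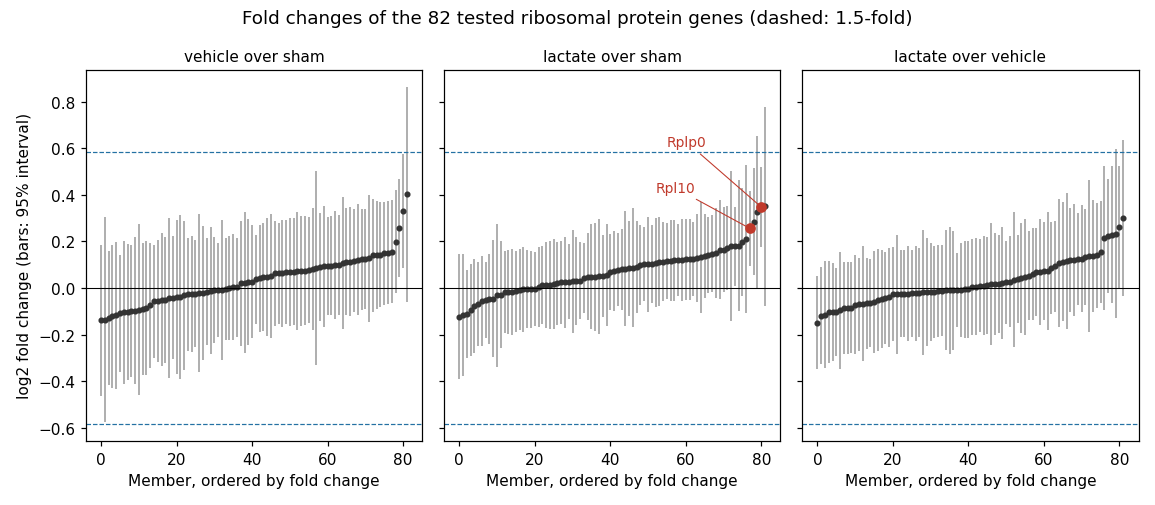
log2 fold change of the 82 tested ribosomal protein genes in each comparison, ordered from the lowest to the highest within each panel. Points are estimates and bars are 95% intervals, red points with names are called genes (Rplp0 and Rpl10), and dashed lines mark 1.5-fold; most bars lie between the dashed lines.

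Among the P stalk proteins, which recruit elongation factors to the large subunit, Rplp0 (ENSMUSG00000067274, chr5:115559467-115563727, GRCm38, + strand) carried the clearest difference. Rplp0 is the base of the stalk, to which Rplp1 and Rplp2 bind. Rplp0 was at 414, 378, 407 and 386 CPM in sham mice, 412, 469, 442 and 452 CPM in vehicle mice and 522, 496, 489.6 and 465 CPM in lactate mice. All lactate mice were above all sham mice, while vehicle mouse 1 was inside the sham range, vehicle mouse 2 inside the lactate range and the other vehicle mice between. Rplp0 rose by 0.35 in lactate over sham (SE 0.08, 1.27-fold, adjusted p = 0.0128 with edgeR's quasi-likelihood test). The fold change was 0.20 (SE 0.10, adjusted p = 0.419) in vehicle over sham and 0.13 (SE 0.10, adjusted p = 0.716) in lactate over vehicle, and neither passed the test over all genes.

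Rplp2, one of the acidic stalk proteins, was at 945, 973, 901 and 966 CPM in sham mice, 967, 928, 1049.8 and 1002 CPM in vehicle mice and 1086, 1056, 1069.9 and 986 CPM in lactate mice. The lowest lactate mouse was above the highest sham mouse, yet the change of 0.18 (SE 0.08) had an unadjusted p of 0.0388 and an adjusted p of 0.158. Its partner Rplp1 was at 904 to 1012 CPM in sham, 848 to 957 CPM in vehicle and 883 to 939 CPM in lactate mice, with a change of -0.01 in lactate over sham. Rpl12, which with Rplp0 anchors the stalk to ribosomal RNA, was at 520.4 to 684 CPM in sham, 509 to 716 CPM in vehicle and 542 to 626 CPM in lactate mice, a change of 0.03. Of the 4 stalk genes, 1 was called higher in lactate over sham, against 8.76% of all genes.

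The peptidyl transferase centre, where the peptide bond forms, is surrounded by Rpl3, Rpl4, Rpl8 and Rpl10. Rpl10 (ENSMUSG00000008682, chrX:74270812-74273135, + strand), which joins the large subunit late in its assembly, was at 788, 735, 721 and 773 CPM in sham mice. It was at 611, 858, 885 and 864 CPM in vehicle mice and at 866, 853, 933 and 874 CPM in lactate mice. Sham and lactate mice did not overlap, and vehicle mouse 1 was below every other mouse while the other vehicle mice lay within the lactate range. Rpl10 rose by 0.26 in lactate over sham (SE 0.08, 1.19-fold, edgeR adjusted p = 0.0412). The call needed all 8 mice: leaving out any of them moved the adjusted p to between 0.0502 and 0.120, although the fold change stayed between 0.23 and 0.28. Over its 20 alternatives Rpl10 was called in 7, and the call was also lost with all 12 mice in 1 fit (adjusted p = 0.162), library totals alone, upper quartile size factors, no filter on low counts and the replicate block. Vehicle over sham gave 0.13 (SE 0.13) with all mice and 0.24 without vehicle mouse 1 (adjusted p = 0.174), and lactate over vehicle gave 0.11 with it and 0.01 without it. Rpl10-ps3, a near-identical copy of Rpl10 with a row of its own, held 32.5% as many counts as Rpl10 and changed by 0.26 in lactate over sham (adjusted p = 0.0608), and the sum of both changed by 0.26 (adjusted p = 0.0390). Reads of these copies may be assigned to either, so the values of Rpl10 alone are uncertain to that extent.

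Rpl8 had a fold change of 0.17 (SE 0.08, adjusted p = 0.210) in lactate over sham, with means of 554 ± 31.4 CPM (SD, n = 4) in sham and 609.7 ± 37.0 CPM (SD, n = 4) in lactate mice. Rpl3 was at 544 ± 10.1, 547 ± 48.8 and 535 ± 33.8 CPM and Rpl4 at 371 ± 22.4, 381 ± 30.4 and 359.6 ± 17.1 CPM in sham, vehicle and lactate mice (SD, n = 4). Their changes in lactate over sham were 0.01 and -0.01, and of the 4 genes of this centre Rpl10 was the one called. In that comparison 8.76% of all genes were called higher, and a list of 4 is too small to set apart from that share.

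Proteins around the exit tunnel, through which the new chain leaves, were not called. Of Rpl4, Rpl17, Rpl19, Rpl23a, Rpl26, Rpl31, Rpl35 and Rpl39, 0 of 8 had an unadjusted p under 0.05 in any comparison, a count too small to set apart from the shares of all genes given above (8.58% and 5.21%, 15.6% and 11.4%, and 4.91% and 3.93% higher and lower). Their fold changes lay between -0.13 and 0.10 in vehicle over sham and between -0.05 and 0.11 in lactate over sham. Rpl19 was at 2958 ± 201, 2944 ± 354 and 3006 ± 186 CPM in sham, vehicle and lactate mice (SD, n = 4). Rpl35 shares its sequence with Gm2000, which held 86.7% as many counts, and the fold changes of the 2 rows in lactate over sham were 0.11 and 0.10.

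Rpl5 and Rpl11, which carry the smallest ribosomal RNA into the large subunit and, when free, bind Mdm2 and so hold back the breakdown of p53, were not called in any comparison. Rpl5 was at 268 to 299 CPM in sham, 273 to 342 CPM in vehicle and 263 to 299 CPM in lactate mice. Rpl11 was at 1739.7, 2677, 1681 and 1869.8 CPM in sham mice, 1669.6, 1717, 1815 and 1885 CPM in vehicle mice and 1765, 1764, 2087 and 2049 CPM in lactate mice. Sham mouse 2 alone was above all other mice, and with it Rpl11 had the lowest fold change of all members in vehicle over sham, -0.14 (SE 0.15), which became 0.06 without that mouse.

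In the small subunit, the 10 listed proteins at the mRNA channel and the decoding site, among them Rps2, Rps3, Rps14, Rps28 and Rpsa, had a median fold change of 0.08 in vehicle over sham and 0.12 in lactate over sham, and 0 of 10 was called, against 1.29% and 8.76% of all genes called higher and 0.182% and 3.54% lower. Rps2, at the entry of the channel, was at 343, 663, 787 and 777 CPM in sham mice, 743, 875, 847 and 863 CPM in vehicle mice and 815, 812, 805 and 791 CPM in lactate mice. The value of sham mouse 1 stood far below the others. Rps2 therefore had the highest fold change of all members in both comparisons with sham, 0.40 (SE 0.21, adjusted p = 0.437) and 0.35 (SE 0.20, adjusted p = 0.282), which became 0.19 and 0.14 without sham mouse 1. The lactate mice did not overlap with the sham mice in Rps2, and their spread, with a coefficient of variation (CV) of 1.32%, was the smallest of the members.

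Rps14, at the platform of the small subunit, was at 1886, 1781, 1719 and 1749 CPM in sham mice, 2215.5, 2220.3, 1957 and 1927 CPM in vehicle mice and 1959, 1774, 1992.5 and 1892 CPM in lactate mice. Each vehicle mouse was above each sham mouse. The change in vehicle over sham was 0.26 (SE 0.10, unadjusted p = 0.0212, adjusted p = 0.270), and in lactate over vehicle Rps14 had the lowest value of the members, -0.15 (SE 0.09, adjusted p = 0.662). Rps3, at the channel entry and also a DNA repair factor, was at 719.6, 727, 704 and 699 CPM in sham mice and 763, 776, 809.9 and 731 CPM in lactate mice. These groups did not overlap, and the change of 0.14 (SE 0.08) had an adjusted p of 0.253. In vehicle mice Rps3 ranged from 585 CPM in mouse 1 to 849 CPM in mouse 2. Rpsa, a small subunit protein that also acts as a laminin receptor, changed by 0.15 in both comparisons with sham (adjusted p = 0.553 and 0.242).

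Rpl13 and Rps28 were the other members with an unadjusted p under 0.05 in a comparison with sham. Rpl13, a surface protein of the large subunit, was at 655, 809, 824 and 762 CPM in sham mice, 882, 940.0, 1013 and 916 CPM in vehicle mice and 769, 923, 998 and 959 CPM in lactate mice. Each vehicle mouse was above each sham mouse, and the lowest lactate mouse was inside the sham range. The change was 0.33 (SE 0.11, unadjusted p = 0.0120, adjusted p = 0.217) in vehicle and 0.29 (SE 0.11, unadjusted p = 0.0182, adjusted p = 0.0985) in lactate over sham. Without lactate mouse 1 the latter became 0.36 with an adjusted p of 0.049995.

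Rps28, at the exit of the mRNA channel, was at 1091, 1826, 1129 and 1523 CPM in sham mice, 1328, 1070.5, 1691 and 1703 CPM in vehicle mice and 1698, 1703.5, 1852 and 1625.5 CPM in lactate mice. The lactate mice were close together while the other groups spread widely, and sham mouse 2 reached the lactate range. The change in lactate over sham was 0.33 (SE 0.15, unadjusted p = 0.0495, adjusted p = 0.184) and without sham mouse 2 it was 0.50 (adjusted p = 0.0224). Without sham mouse 1 it was 0.22 (adjusted p = 0.377), so the size of the change depended on which sham mice were counted.

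**Figure D3:**
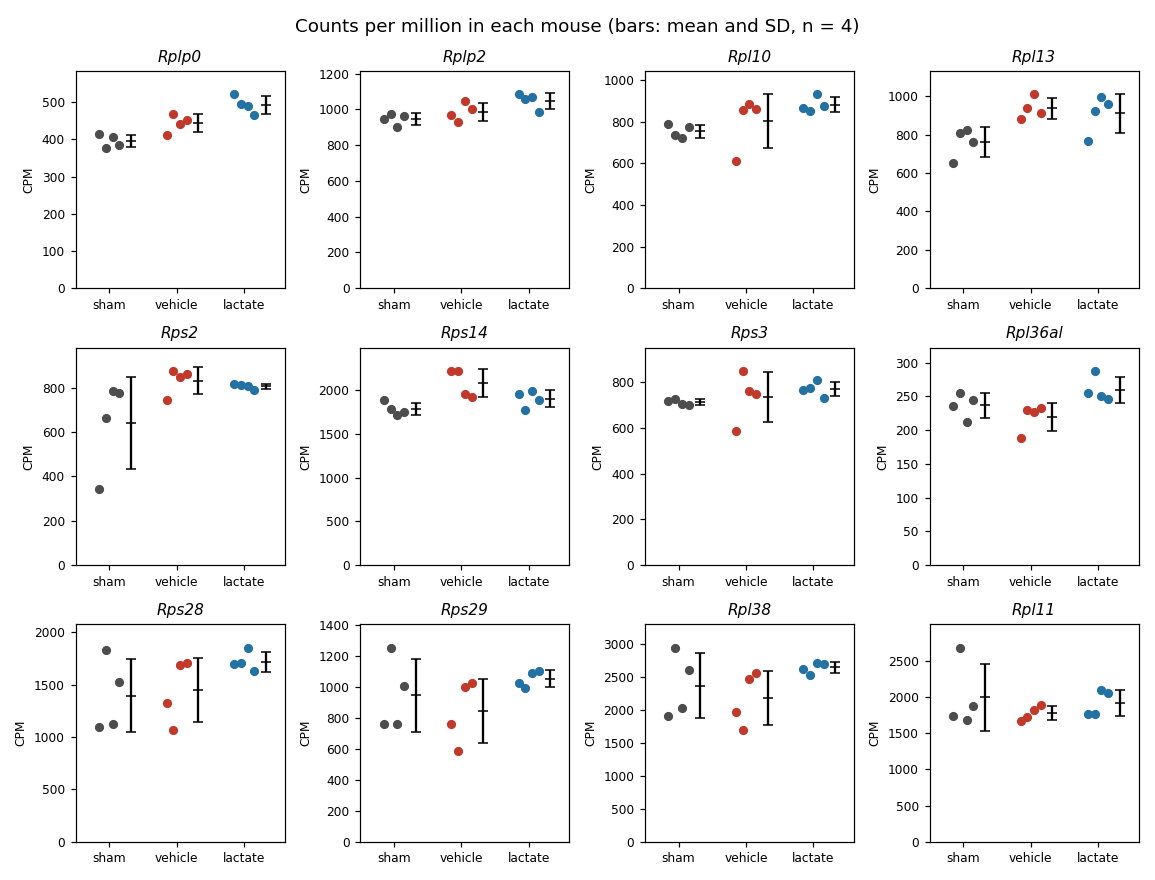
CPM of 12 ribosomal protein genes in each sham, vehicle and lactate mouse, with axes from 0. Points are mice and bars are the mean and SD of 4 mice; Rplp0 is higher in each lactate mouse than in each sham mouse, Rps2 is low in sham mouse 1, and Rps28, Rps29 and Rpl38 spread widely in sham and vehicle mice and little in lactate mice.

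Counting the members whose groups did not overlap gave a similar picture. In vehicle over sham, 2 members were higher without overlap (Rpl13 and Rps14) and 0 lower, against 4.14% and 4.89% of all genes. In lactate over sham there were 5 higher (Rpl10, Rplp0, Rplp2, Rps2 and Rps3) and 0 lower, against 10.4% and 8.74%. In lactate over vehicle there was 1 higher, Rpl36al, and 0 lower, against 2.99% and 1.83%. Rpl36al, a paralog of Rpl36a, was at 188, 230.4, 226 and 232 CPM in vehicle mice and 254, 288, 251 and 246 CPM in lactate mice, and its change of 0.22 (SE 0.11) had an adjusted p of 0.591. The shares of members, from 0% to 6.10%, were below the background in all 6 counts. Both counts of lactate over vehicle, and the 2 members higher in vehicle over sham, are too close to the background to set apart from it.

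Rps27a and Rps6 are of interest for how they are made and regulated. Rps27a, which is made as a fusion with ubiquitin, was at 1257 to 1455 CPM in sham, 1101 to 1435 CPM in vehicle and 1251.5 to 1373 CPM in lactate mice, with fold changes of -0.03 and -0.02 against sham. Rps6, the protein that S6 kinases phosphorylate downstream of mTOR, was at 689.9 to 768 CPM, 589 to 792 CPM and 719 to 809 CPM, with fold changes of 0.05 and 0.11. Phosphorylation was not measured.

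Members commonly used as reference genes were Rplp0, Rpl4, Rpl13a, Rpl19, Rpl27, Rpl32 and Rps18. In lactate over sham 1 of 7 was called, Rplp0, against 8.76% of all genes called higher, and the other 6 had fold changes between -0.07 (Rpl27) and 0.12 (Rps18). Rpl32 was at 545 ± 11.1 CPM in sham, 556 ± 40.5 CPM in vehicle and 562 ± 28.6 CPM in lactate mice (SD, n = 4), a change of 0.06 and 0.07. Rpl13a was at 1297 ± 78.8, 1368 ± 130.0 and 1291 ± 88.0 CPM (SD, n = 4), but a row of near-identical sequence, Gm45713, together with Rpl13a-ps1 held 84.9% as many counts as Rpl13a. Among the 7, Rplp0 was thus the reference gene with a called difference between sham mice and ischemic mice given lactate.

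The 5 paralogs and copies that were tested had 0 called genes, too few to set apart from the shares of all genes called higher (1.29%, 8.76% and 0%) or lower (0.182%, 3.54% and 0.00574%), with median fold changes of -0.04 in vehicle over sham, 0.16 in lactate over sham and 0.21 in lactate over vehicle. Rpl22l1, a paralog of Rpl22 in the large subunit, was at 1554 to 2209 CPM in the 12 mice and Rpl22 at 336 to 484 CPM. Rpl22l1 had fold changes of -0.01, -0.11 and -0.11 in vehicle over sham, lactate over sham and lactate over vehicle (adjusted p = 0.981, 0.458 and 0.781). Rps27l, a paralog of Rps27 known as a p53 target, was at 49.8 to 79.2 CPM and changed by 0.20 in lactate over sham (adjusted p = 0.265). Rpl7l1, a paralog of Rpl7 that takes part in ribosome assembly, was at 18.3 to 29.6 CPM. Rps27rt, a retrotransposed copy of Rps27, was at 365 to 576 CPM, and its reads cannot be told from those of Rps27 with certainty, since their coding sequences are nearly identical. Rpl10l and Rpl39l, known from the male germ line, and Rpl3l, known from heart and skeletal muscle, held 35 counts in all over the 12 mice and at most 8 in a mouse (Rpl39l in lactate mouse 3).

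Near-identical copies matter for much of the list, Rps27rt included. For 79 of the 85 members, another annotated gene matches at least 95% of the bases over at least 90% of the coding sequence. Positions were not compared, so a gene model that overlaps the member itself would count as a copy. For 17 members such a copy has its own row in the table. In Rps10 the row RPS10-NUDT3 held 98.4% as many counts as the gene itself, in Rplp1 the row Gm10073 held 42.4% and in Rplp2 the row Wdr89 held 17.8%. Adding the copies to their members called the same 2 genes in lactate over sham, Rplp0 and Rpl10, and 0 in the other comparisons.

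Members varied little between mice of a group. The median CV was 6.95% in sham, 8.96% in vehicle and 4.84% in lactate mice, beside 9.27%, 14.2% and 8.57% for the genes of at least 100 CPM. This spread was not the same for all members and all mice. Vehicle mouse 1 was the lowest of the 12 mice in 45 of the 82 members, sham mouse 3 in 17 and any other mouse in at most 5. Sham mouse 2 was the highest in 22 members and vehicle mouse 2 in 18. In vehicle mouse 1 the median member was 0.15 below its mean over the 12 mice on the log2(CPM + 1) scale, and in the other mice the median member deviated by -0.11 to 0.09. Rpl12, Rpl7a and Rpl5 went against this and were farthest above their means in vehicle mouse 1, with Rpl7a at 510.5 CPM there and at 364.5 to 474 CPM in the other mice. Genes outside the members with a mean of at least 100 CPM were also low in vehicle mouse 1. Their median deviations there were -0.20, -0.19 and -0.05 for 75 to 390, 396 to 564 and 576 to 1257 coding bases. Those of members of these lengths were -0.22, -0.13 and -0.13. The count of lowest and highest mice was not taken over all genes.

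**Figure D4:**
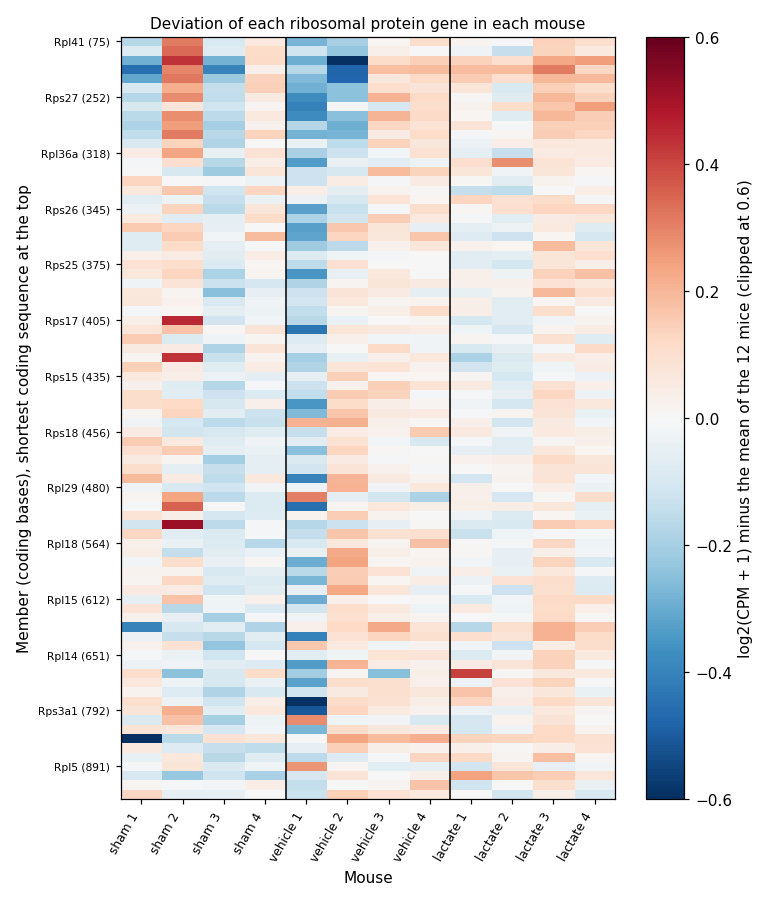
Deviation of each of the 82 tested members in each mouse from its mean over the 12 mice, in log2(CPM + 1), with members in rows from the shortest coding sequence at the top to the longest at the bottom and mice in columns. Red is above and blue below the mean; the column of vehicle mouse 1 is mostly blue, and the top rows are red in sham mouse 2 and blue in vehicle mouse 2.

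Members of different coding length differed in how they varied between mice. Members were split by length into the 27 shortest (75 to 390 coding bases), 28 between (396 to 564) and the 27 longest (576 to 1257). The 27 shortest include Rpl41, Rpl39, Rps29, Rps28, Rpl38, Rps21 and Rps27, and 10 members have no annotated coding transcript of 500 bases, the minimum read length of the study. The median CV of short, middle and long members was 8.84%, 6.996% and 6.08% in sham mice, 11.9%, 7.81% and 9.27% in vehicle mice and 5.54%, 4.47% and 5.37% in lactate mice, highest in the short members in each group and in order of length in sham mice. The median of the short members minus that of the long members, as deviations from the 12-mouse means in log2(CPM + 1), was -0.09, 0.17, -0.04 and 0.10 in sham mice. It was -0.08, -0.23, 0.02 and 0.05 in vehicle mice and 0.02, -0.03, 0.02 and 0.06 in lactate mice. Sham mouse 2 was highest and vehicle mouse 2 lowest, and the values of the 3 groups overlapped.

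Rps29 and Rpl38, both short, show this gene by gene. Rps29 was at 761, 1253, 763 and 1004 CPM in sham mice, 757, 589, 1002 and 1025 CPM in vehicle mice and 1023, 994, 1091 and 1104 CPM in lactate mice. Rpl38, a large subunit protein known for its role in the translation of Hox mRNAs, was at 1908, 2945, 2028.5 and 2605 CPM in sham mice, 1972, 1699, 2469 and 2567.5 CPM in vehicle mice and 2626, 2537.5, 2716 and 2704 CPM in lactate mice. In both genes sham mice 1 and 3 and vehicle mice 1 and 2 were low together. They had the highest fold changes of the members in lactate over vehicle, 0.30 (SE 0.15, adjusted p = 0.591) for Rps29 and 0.26 (SE 0.12, adjusted p = 0.564) for Rpl38, and these became 0.16 and 0.16 without vehicle mouse 2.

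The median fold change of the 27 shortest members was -0.03 in vehicle over sham, 0.09 in lactate over sham and 0.11 in lactate over vehicle, with 21 of 27 above 0 in the last. The size of each of these values depended on single mice, while the second and the last stayed above 0 whichever mouse was left out. The first turned to 0.04 without sham mouse 2 and to 0.03 without vehicle mouse 1. The second became 0.03 without sham mouse 1 or without sham mouse 3, and 0.16 without sham mouse 2. The last ranged from 0.05 without vehicle mouse 2 to 0.16 without vehicle mouse 4. The 27 longest had medians of 0.09, 0.10 and -0.01, with 23, 25 and 12 of 27 above 0. When single mice were left out, the median of the longest lay between 0.06 and 0.13 in vehicle over sham. In lactate over sham it lay between 0.07 and 0.12, and in lactate over vehicle it changed sign. The same measure was taken in genes that encode no ribosomal protein, with a mean of at least 100 CPM and coding sequences of the same lengths (215 short and 551 long). Their short minus long value was 0.16 in sham mouse 2, as in the members, and -0.14 in vehicle mouse 1, but 0.01 in vehicle mouse 2, where that of the members was -0.23. The median fold change of these short genes was -0.09 in vehicle over sham, -0.07 in lactate over sham and 0.00 in lactate over vehicle. That of the long genes was 0.04, 0.01 and -0.03, with 57.9%, 52.8% and 42.1% above 0.

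**Figure D5:**
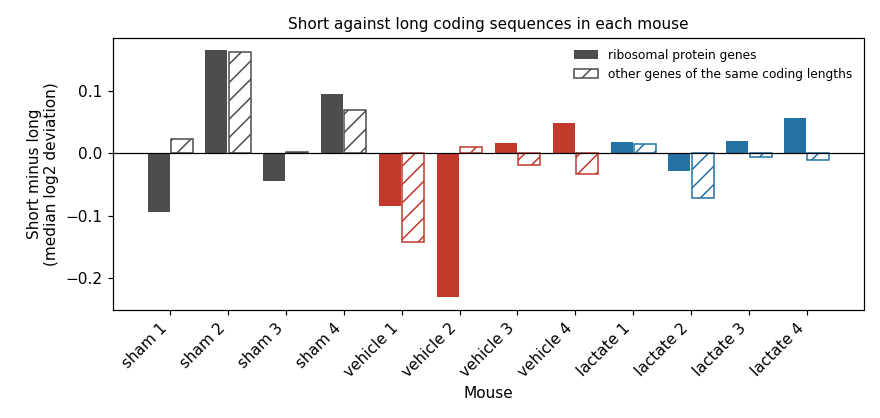
Median log2 deviation of genes with short coding sequences (75 to 390 bases) minus that of genes with long ones (576 to 1257 bases) in each mouse, for the ribosomal protein genes (filled bars) and for other genes of the same coding lengths with a mean of at least 100 CPM (hatched bars). The bars of sham mouse 2 are alike, at 0.17 and 0.16, and those of vehicle mouse 2 differ, at -0.23 and 0.01.

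Other parts of the translation machinery were taken from lists as well. Fau, which encodes a small subunit protein fused to a ubiquitin-like protein, was at 1421.5 ± 245, 1287 ± 99.3 and 1347 ± 56.5 CPM in sham, vehicle and lactate mice (SD, n = 4), with fold changes of -0.11 and -0.05 against sham. Rack1, a scaffold on the small subunit, was at 53.5 to 73.4 CPM in the 12 mice, with fold changes of 0.20 and 0.11 against sham (adjusted p = 0.596 and 0.628). Of 14 translation factors and related genes whose mRNAs carry a TOP, such as Eef1a1 and Eef2, which bring tRNAs to the ribosome and move it along, 0 were called in any comparison, with median fold changes of 0.09, 0.10 and -0.02. In the same comparisons 1.29%, 8.76% and 0% of all genes were called higher and 0.182%, 3.54% and 0.00574% lower, so that a count of 0 in a list of this size does not set it apart from all genes. Eef1a1 was at 1516 ± 40.2, 1521 ± 279 and 1585 ± 79.6 CPM (SD, n = 4), and its lowest value, 1104 CPM, was again that of vehicle mouse 1.

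Genes that build ribosomes or regulate their synthesis were taken from fixed lists. Of 32 ribosome assembly factors, 0 were called in vehicle over sham, where 1.29% of all genes were called higher and 0.182% lower. In lactate over sham 0 were called higher and 1, Nop10, lower, against 8.76% and 3.54% of all genes. The median fold change of the list was 0.13 there, with 24 of 32 above 0. With an unadjusted p under 0.05, 5 were higher and 1 lower, against 15.6% and 11.4% of all genes. Nop10, a part of the particles that modify ribosomal RNA, was at 103, 132, 104 and 103 CPM in sham mice, 61.9, 91.2, 84.4 and 80.3 CPM in vehicle mice and 78.3, 64.8, 79.5 and 81.6 CPM in lactate mice. Both ischemic groups were below the sham mice, and Nop10 fell by 0.52 in lactate over sham (SE 0.13, adjusted p = 0.0178), while the change of -0.45 in vehicle over sham (SE 0.16) had an adjusted p of 0.232. Of 12 genes of RNA polymerase I and its factors, which transcribe ribosomal RNA, 0 were called in any comparison, which again does not set a list of this size apart from all genes.

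Of 18 genes around mTOR, S6 kinase, Larp1 and the 4E-BP proteins, 1 was called higher in vehicle over sham, 3 in lactate over sham, and 0 lower in either, where 1.29% and 8.76% of all genes were called higher. Ddit4, an inhibitor of mTOR induced by lack of oxygen, was at 33.4, 33.6, 39.9 and 44.0 CPM in sham mice, 103, 75.2, 102 and 88.2 CPM in vehicle mice and 91.1, 100.1, 94.0 and 91.3 CPM in lactate mice. It rose by 1.32 in vehicle (SE 0.16, adjusted p = 0.000662) and by 1.35 in lactate over sham (SE 0.12, adjusted p = 1.32e-05). Eif4ebp1, which blocks cap-dependent initiation when mTOR is inactive, was at 16.9, 18.7, 16.3 and 16.2 CPM in sham mice, 16.1, 17.7, 23.2 and 25.5 CPM in vehicle mice and 29.9, 43.6, 40.2 and 40.6 CPM in lactate mice. It rose by 1.21 in lactate over sham (SE 0.15, adjusted p = 0.000219), and although each lactate mouse was above each vehicle mouse, lactate over vehicle gave 0.89 (SE 0.19) with an adjusted p of 0.360. Myc, a transcription factor that drives ribosome synthesis, rose by 1.05 in lactate over sham (SE 0.32, adjusted p = 0.0470) at low levels, with means of 3.85 ± 1.67 CPM in sham and 7.84 ± 2.05 CPM in lactate mice (SD, n = 4). The ribosomal protein genes themselves differed by less than 1.5-fold in every estimate of the 3 comparisons, with the highest at 1.32-fold for Rps2 in vehicle over sham.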

How the data were processed

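Total RNA of the brain of 12 mice was reverse transcribed, amplified over 14 PCR cycles and sequenced on a PromethION (Oxford Nanopore). Per the methods of the study, reads with a mean quality of at least 7 and a length of at least 500 bases were kept, ribosomal RNA was discarded, and full-length reads were mapped with minimap2 and clustered with pinfish. The authors deposited counts per gene for each mouse, not normalized, beside CPM, each count divided by the total of its library (6815920 to 10677224 counts). Tests and shares of reads used the deposited counts, and levels are the CPM as deposited. The submitters' processing notes name GRCm38 and DESeq 1.10.1. Deposited columns with the authors' own comparisons were not used, and 4 lines that name no gene were left out.

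Groups were taken from the labels. Each pair of groups was fitted alone with edgeR 4.0.16 (TMM factors, quasi-likelihood test) in R 4.3.3 over the genes that reached a CPM of 1 in 4 or more of the 8 mice compared. P-values were adjusted by Benjamini-Hochberg over all genes tested. The fits were tested on simulated data. DESeq2 1.42.0, limma 3.58.1 (voom), other size factors, filters and gene sets, a replicate block, and leaving out each mouse were alternatives; adding near-identical copies was chosen after seeing the data. Copies were found with blastn 2.17.0 in GENCODE M21 at an identity of at least 95% over at least 90% of the coding sequence. Named genes were all members of the role lists given in the text, the paralogs, the 3 highest and 3 lowest fold changes of each comparison and up to 12 called members; other genes came from fixed pathway lists. The members are set by a rule on gene symbols, but this rule and the lists were chosen with earlier results of these data known. Some genes of the lists are not reported here.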

Additional observations from a re-analysis of the deposited data

Results flagged for a closer look

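In each group of 4 mice, the gap between the highest or lowest mouse and its nearest neighbour was divided by the range of the group, and values above Dixon's 95% critical value were marked; chance marks about 1 in 20 groups, and 6 of 129 were marked here. Rpl27 gave 0.936 in vehicle mice, with mouse 1 at 371 CPM and the others at 519 to 529 CPM. Rpl10 gave 0.902 in the same group, with mouse 1 at 611 CPM and the others at 858 to 885 CPM, and Rpl36al gave 0.863, with mouse 1 at 188 CPM and the others at 226 to 232 CPM. Among lactate mice, Rpl7l1 gave 0.877 with mouse 1 at 29.6 CPM above the others at 22.2 to 23.1 CPM, and Rpl17 gave 0.831 with mouse 1 at 664 CPM below the others at 716 to 726 CPM. In sham mice, Rpl31 gave 0.838, with mouse 3 at 1377 CPM and the others at 1468 to 1485 CPM.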

How the results depend on the processing

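In lactate over sham, 2 members were called higher with the main settings and 1 with all 12 mice in 1 fit, with library totals alone, with no filter on low counts, with upper quartile size factors, and with the replicate block (1 called). Leaving out single mice gave 1 to 2. The rule of an unadjusted p gave 5, and with a 1.5-fold limit it gave 0. Rplp0 was called in each of its 20 alternatives (adjusted p from 0.000814 to 0.0415) and Rpl10 in 7 of 20 (0.0121 to 0.162). In vehicle over sham, an unadjusted p at any fold gave 2 members higher. Of 2517 values of named members under an alternative, 13 lost a call, all of them Rpl10 in lactate over sham, and 2 gained one (Rpl13 and Rps28, each without 1 mouse). The other 2502 stayed on their side of the threshold, nearly all of them uncalled, and 226 uncalled values changed sign. The replicate numbers come from different animals, and the labels do not say whether mice of the same number were processed together. Correlations of same-numbered mice were -0.178 to 0.183 in vehicle and sham, -0.0248 to 0.139 in lactate and sham and -0.128 to 0.029 in lactate and vehicle mice. Of 8 mice, 4, 5 and 0 correlated best with their own number. Over all genes, the block gave 198, 2281 and 1 calls where the fit without it gave 250, 2123 and 1. The mean share of reads was 9.27%, 9.23% and 9.66% in sham, vehicle and lactate mice over Ensembl rows alone, and 7.32%, 7.32% and 7.47% with only members that have a transcript of at least 500 bases. The 3 untested paralogs are too low for a statement at this depth.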
